A study of Mus musculus with 2 samples.

Results

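The immediate early genes Fos, Fosb, Jun, Junb, Jund, Egr1, Dusp1, Ier2, Atf3 and Zfp36 were followed across the cell types of 2 mouse spleen cell suspensions, 1 from a wild-type control and 1 from an animal with sickle cell disease (SCD, Berkeley model). All 10 genes were found by symbol among the 26124 genes counted in both libraries. They were chosen by their lower UMI levels in the SCD than in the wild-type library, which were already known, so the differences between the libraries are given as a description and were not tested. Each group held 1 mouse and 1 library. None of the differences below could be checked in a replicate, and intervals cover only the error of counting.

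Both animals were homozygous for the alpha globin allele Hbatm1Paz. The wild-type control was heterozygous for Hbbtm1Tow, was hemizygous for the human globin transgene Tg(HBA-HBBs)41Paz and did not sickle, so it shared the altered alpha globin genes and the transgene with the SCD animal. The SCD mouse was homozygous for Hbbtm1Tow and for the transgene, and sickled. The mice were 12 to 16 weeks old and untreated. Each spleen was broken up mechanically, strained, exposed to red cell lysis buffer for 2 min at 37°C and enriched for dendritic cells (DCs) by removing other cells on beads.

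Immediate early genes are transcribed within minutes of a stimulus, from promoters that are already poised and without new protein synthesis, and their mRNAs are short-lived. Fos and Fosb pair with Jun, Junb or Jund to form the transcription factor AP-1, Atf3 is a related leucine zipper protein, and Egr1 is a zinc finger factor. Dusp1, a phosphatase that switches off MAP kinases, and Zfp36 (tristetraprolin), which binds AU-rich elements and speeds the decay of mRNAs such as Tnf, act as brakes on the same response. In spleen leukocytes these genes respond to inflammatory signals, adhesion and mechanical stress, and they are also known to rise while tissues are dissociated.

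Most of the genes are compact and carry AU pentamers in the 3′ untranslated region. In the GENCODE annotation of GRCm38, Fos lies on the plus strand at chr12:85473890-85477273, Junb on the minus strand at chr8:84974484-84978718, Jund on the plus strand at chr8:70698949-70700616 and Zfp36 on the minus strand at chr7:28376784-28380253. Jun, Junb, Jund and Ier2 had 1 exon, as did 4.87% of 20727 protein-coding genes, and all 10 had at most 4 exons, as did 31.9%. The pentamer ATTTA occurred in the 3′ untranslated region of 9 of the 10 genes, against 62.7% of protein-coding genes, and Ier2 was the exception. Fos, Jun and Dusp1 held 4 copies each.

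RefSeq promoter windows of GRCm38.p6, from 250 bases before to 50 after the start, matched 8 of the 10 genes, and Egr1 and Ier2 were not matched. The motif TGACG, the core of the cAMP response element, stood on either strand in 5 of the 8 windows (Fos, Fosb, Junb, Dusp1 and Atf3), against 20.8% of 32851 promoters. It was added to the motifs after the promoters had been seen. The full palindrome TGACGTCA, which contains TGACG on both strands, occurred in Dusp1 alone (1.79% of promoters). The serum response element core, the CArG box, occurred in Zfp36 alone (1.63%), TATAAA in Fos and Junb (13.6%) and the AP-1 site TGANTCA in none of the 8 (7.81%). All motifs were searched on both strands and only in these windows, so a gene without a match here can hold one farther away. The 250 bases before the start of Dusp1, Fos, Junb and Zfp36 are written 5′ to 3′ on the gene's strand. Dusp1, Fos and Junb are the 3 matched genes with the largest differences between the libraries in neutrophils, on the log2 scale with 5 CPM added to both levels. Zfp36 holds the CArG box. Capitals mark TGACG on either strand (with the palindrome in Dusp1), TATAAA and the CArG box. The TATAAA of Junb begins at the RefSeq start, past the printed bases, and is not shown. That start lay at -30 from the GENCODE start of Junb, so this TATAAA lies before the GENCODE start.
Dusp1: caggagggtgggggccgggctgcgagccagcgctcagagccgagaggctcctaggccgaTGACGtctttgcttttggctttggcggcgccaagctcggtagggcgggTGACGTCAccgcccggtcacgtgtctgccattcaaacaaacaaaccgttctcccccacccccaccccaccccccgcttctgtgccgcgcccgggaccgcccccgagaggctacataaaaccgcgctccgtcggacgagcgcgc
Fos: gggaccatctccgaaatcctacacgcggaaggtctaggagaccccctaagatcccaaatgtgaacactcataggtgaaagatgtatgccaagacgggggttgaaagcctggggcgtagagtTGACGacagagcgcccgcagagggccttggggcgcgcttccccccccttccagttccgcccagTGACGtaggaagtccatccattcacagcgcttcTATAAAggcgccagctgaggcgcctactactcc
Junb: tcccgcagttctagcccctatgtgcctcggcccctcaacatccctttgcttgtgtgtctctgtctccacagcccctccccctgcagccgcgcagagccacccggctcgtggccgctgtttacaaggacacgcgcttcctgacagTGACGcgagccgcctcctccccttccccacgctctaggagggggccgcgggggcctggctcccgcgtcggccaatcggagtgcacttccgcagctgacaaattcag
Zfp36: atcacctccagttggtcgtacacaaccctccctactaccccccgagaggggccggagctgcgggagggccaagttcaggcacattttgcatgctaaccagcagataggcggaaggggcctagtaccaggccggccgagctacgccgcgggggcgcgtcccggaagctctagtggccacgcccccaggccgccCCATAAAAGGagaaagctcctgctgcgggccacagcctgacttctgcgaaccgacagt
The regions are chr17:26508473-26508722 on the minus strand for Dusp1, chr12:85473640-85473889 on the plus strand for Fos, chr8:84978749-84978998 on the minus strand for Junb and chr7:28379229-28379478 on the minus strand for Zfp36. The RefSeq start used here is not always the GENCODE start of the gene. It lay inside the GENCODE gene by 53656 bases for Dusp1, 34706 for Atf3 and 1025 for Zfp36. For Junb it lay at -30 and for Jund at -1210 from the GENCODE start, and for Fos the starts were the same. In Fos TGACG began at positions -129 and -66 and TATAAA at -33, counted from the first transcribed base. In Dusp1 the palindrome began at -143. A match of letters does not show that a factor binds there.

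The wild-type library held 10845 cells with 97880318 unique molecular identifiers (UMIs, each standing for 1 captured mRNA molecule), and the SCD library 13447 cells with 189688217. After the filters of the study 9424 and 10636 cells were kept, and 22 barcodes of kept cells were shared by the libraries. Clusters were built without the 10 genes, other primary response genes and heat shock chaperones, and were named red pulp macrophage-like, plasmacytoid DC-like (pDC), conventional DC-like, monocyte-like or neutrophil-like from their markers. The suffix is left out below. At least 10 of the 15 monocyte markers and at least 15 of the 17 conventional DC (cDC) markers reached 50 CPM (UMIs of a gene scaled to a class total of 1000000) in both libraries, and at least 18 of the 19 neutrophil markers. All 11 pDC and all 13 red pulp macrophage markers did so. In spite of the enrichment for DCs, 46.4% of the cells kept in the wild-type library and 67.7% in the SCD library were neutrophils. In these neutrophils the median was 2453.5 UMIs per cell in the wild-type and 6956.5 in the SCD library. A cluster led by globin and immunoglobulin transcripts was left unnamed, and the B cell-like cluster held 20 wild-type cells and was not compared.

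In the wild-type library the AP-1 genes were spread unevenly over the cell types. Fos was at 366 CPM in neutrophils (95% Poisson interval 357 to 376), 179.8 in monocytes, 67.0 in cDCs, 39.8 in red pulp macrophages and 33.7 in pDCs. The last 2 had overlapping intervals. Junb and Jund had the same leading cell type, with 833 and 796 CPM in neutrophils, and their lowest values were 86.6 CPM in pDCs for Junb and 198 CPM in red pulp macrophages for Jund. Fosb and Jun had another order. Fosb was highest in cDCs at 103 CPM and lowest in neutrophils at 16.3 CPM, overlapping red pulp macrophages, and Jun was at 247 CPM in cDCs and 51.9 CPM in neutrophils. Thus the neutrophils led for 1 Fos-type and 2 Jun-type genes, and the cDCs for the other AP-1 genes.

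Of the remaining genes Dusp1, Zfp36 and Ier2 were highest in neutrophils, Egr1 in cDCs and Atf3 in monocytes. Dusp1 was at 751 CPM in wild-type neutrophils and at 114 CPM in cDCs and 106 CPM in monocytes, whose intervals overlapped. Zfp36 was at 599 CPM in neutrophils and 77.7 CPM in pDCs, and Ier2, a nuclear protein of the early response, at 237 and 29.4 CPM. Egr1 was highest in cDCs at 55.5 CPM, with 11.2 CPM in monocytes and 5.05 CPM in neutrophils. Atf3 was highest in monocytes at 44.6 CPM. Over the sums of the 10 genes, wild-type neutrophils stood at 3684 CPM, cDCs at 1606, monocytes at 1508, red pulp macrophages at 835 and pDCs at 652.

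Over all kept cells 9 of the 10 genes were at least 2-fold lower in the SCD library, all but Ier2, against 14.2% of the 3328 expressed genes (7 of the 8 that counted as expressed themselves), and these sums mix cell types in different shares.

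In the SCD library the order of the cell types was different for most of the genes. cDCs had the highest level of Fos (31.6 CPM), Fosb (30.7), Jun (141), Junb (248), Jund (247), Egr1 (43.3), Dusp1 (44.6) and Zfp36 (151). Ier2 was highest in neutrophils at 119.7 CPM, with an interval overlapping that of monocytes at 114 CPM. Atf3 was highest in monocytes at 22.0 CPM. The summed level was 1027 CPM in cDCs, 483 in neutrophils, 469 in monocytes, 324 in pDCs and 302 in red pulp macrophages.

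**Figure D1:**
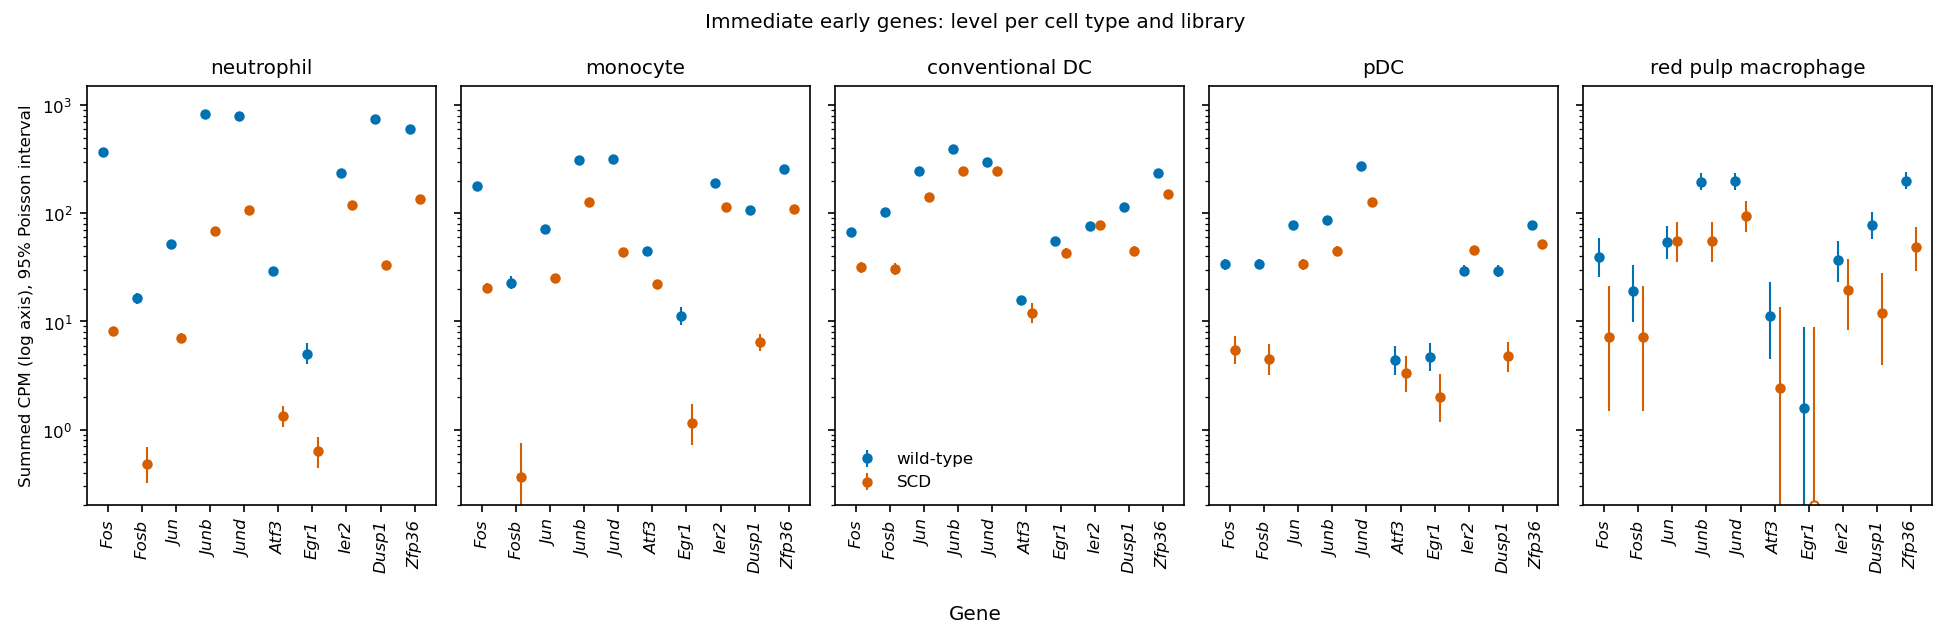
Level of each gene in 5 cell types (panels), as CPM on a log axis with 95% Poisson intervals of counting error, for the wild-type (blue) and the SCD library (orange). In neutrophils the blue points lie above the orange for all 10 genes, from Ier2 at 237 and 119.7 CPM to Fos at 366 and 8.18 CPM. The open point on the axis is Egr1 in SCD red pulp macrophages, at 0 UMIs, and intervals are drawn no lower than the axis.

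Among the cell types summed over all their cells, neutrophils had the lowest median ratio, and their single clusters, given further down, lay closer to 0. Fos stood at 366 CPM for wild-type and 8.18 for SCD, with a log2 ratio of -4.82 (interval -4.90 to -4.73). Log2 ratios here are SCD over wild-type after adding 5 CPM to both levels, which understates the difference of low genes. Dusp1 was at 751 and 33.6 CPM (log2 ratio -4.29), Junb at 833 and 69.3 (-3.50), and Jund at 796 and 107 (-2.84). Zfp36 was at 599 and 135 CPM (-2.11) and Jun at 51.9 and 7.09 CPM (-2.24). Among the genes at low level, Atf3 was at 29.2 and 1.34 CPM (-2.43), Fosb at 16.3 and 0.480 CPM (-1.96) and Egr1 at 5.05 and 0.629 CPM (-0.84). Ier2 stood apart among the abundant genes, with 237 and 119.7 CPM (-0.95).

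All 10 genes were lower in SCD neutrophils, and 8 were at least 2-fold lower on this scale, of which 6 were among the 7 that counted as expressed (at least 50 CPM and 20 UMIs in 1 library). Their median log2 ratio was -2.33. In the same comparison 19.5% of the 2488 expressed genes were at least 2-fold lower, and the median of all expressed genes was -0.38. Rescaling by the median of the gene ratios (-0.40 on the log2 scale in neutrophils) moved the median of the 10 genes to -2.08. All 10 were still below 0. The neutrophil UMIs per cell went the other way, so the Ier2 UMIs per cell were lower in the wild-type (0.863 times the SCD value), while Fos UMIs per cell were 19.5 times higher.

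The monocytes of the libraries lay in different shares in cluster 4 (598 of 1040 wild-type and 944 of 1357 SCD cells), cluster 9 (396 and 49) and cluster 21, which holds cell division genes such as Birc5 (46 and 364). Over all monocytes Dusp1, Fos and Jund had the lowest ratios. Dusp1 stood at 106 CPM for wild-type and 6.41 for SCD (log2 ratio -3.28), Fos at 179.8 and 20.3 CPM (-2.87), and Jund at 316 and 44.0 CPM (-2.71). Fosb, with 225 and 7 UMIs, was at 22.9 and 0.365 CPM (-2.38). The differences were smaller for Jun at 71.0 and 25.0 CPM (-1.34), Junb at 308 and 126 (-1.26), Zfp36 at 257 and 109.9 (-1.19), Atf3 at 44.6 and 22.0 (-0.88) and Ier2 at 191 and 114 (-0.72). Egr1 was at 11.2 and 1.15 CPM (-1.40). Again 8 of the 10 genes were at least 2-fold lower (6 of the 7 expressed), with a median of -1.37, against 5.86% of the 3446 expressed genes and a median of -0.09.

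In cDCs, whose cells lay mostly in cluster 3 in the wild-type library (1392 of 2662) and in clusters 3 and 19 in the SCD library (226 and 220 of 719), fewer genes differed by 2-fold. Fosb stood at 103 CPM for wild-type and 30.7 for SCD (-1.60), Dusp1 at 114 and 44.6 CPM (-1.27) and Fos at 67.0 and 31.6 CPM (-0.98). Jun was at 247 and 141 CPM (-0.79), Junb at 395 and 248 (-0.66) and Zfp36 at 237 and 151 (-0.64). Jund, at 296 and 247 CPM (-0.25), and Egr1, at 55.5 and 43.3 CPM (-0.32), lay close together in the libraries, and Ier2 was at 76.0 and 77.8 CPM, with an interval of the log2 ratio from -0.09 to 0.16. In all, 2 of the 10 genes were at least 2-fold lower (2 of the 9 expressed), with a median of -0.65, against 4.1% of the 3437 expressed genes and a median of -0.12. Without clusters 8 and 14, which are described with the subtypes below, the median of the 10 genes was -0.35 and Fosb alone was past 2-fold (-1.33), against 3.44% of expressed genes, while Fos was at -0.32, Dusp1 at -0.77 and Jund at 0.10.

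The pDCs and red pulp macrophages held few UMIs of these genes. In pDCs Fosb stood at 34.3 CPM for wild-type and 4.53 for SCD (-2.04), Fos at 33.7 and 5.48 CPM (-1.89), Dusp1 at 29.3 and 4.77 CPM (-1.81) and Jund at 274 and 128 CPM (-1.07). Ier2 was higher in the SCD pDCs, at 29.4 and 45.4 CPM (0.55, interval 0.35 to 0.75), but it was at -0.11 with finer clusters and at -0.087 with cells of over 5000 genes included. Without called doublets Fos was at -1.60 and Fosb at -1.82, while Dusp1 was at -0.74, Jund at -0.81 and Jun at -0.73 and so no longer past 2-fold. Egr1 in pDCs, at 4.75 and 2.03 CPM (-0.47), turned to 0.16 without called doublets and to 0.45 with cells of over 5000 genes. With doublets left in, 5 of the 10 genes were at least 2-fold lower, with a median of -0.97, and without them 2 were, with a median of -0.71. Of the 4 that counted as expressed with doublets left in, 2 were lower by that much, against 1.08% of the 3522 expressed genes, whose median was -0.10. The largest pDC cluster, number 11 (652 and 458 cells), had 1 of the 10 genes past 2-fold, Fosb, and none of the 2 expressed ones, against 0.174% of expressed genes, with a median of -0.47. The smaller clusters 17 (70 and 133 cells, led by Bcl2 and Ly6d) and 20 (112 and 136 cells, led by the immunoglobulin gene Ighg3 and by Ccr9) had 9 and 8 of the 10 genes past 2-fold (7 of 7 and 6 of 7 expressed), against 5.61% and 12.3%, with medians of -1.89 and -2.11.

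In red pulp macrophages Dusp1 had 49 UMIs in the wild-type and 5 in the SCD library (78.1 and 12.1 CPM, log2 ratio -2.28), Zfp36 126 and 20 (201 and 48.4 CPM, -1.95) and Junb 123 and 23 (196 and 55.6 CPM, -1.73). Fos had 25 and 3 UMIs, a log2 ratio of -1.87 with an interval from -2.89 to -0.62. Jun stood at 54.2 and 55.6 CPM, giving a log2 ratio of 0.04 with an interval from -0.72 to 0.77, and Egr1 had 1 UMI and 0. At least 2-fold lower were 6 of the 10 genes (4 of the 5 expressed), against 6.02% of the 3819 expressed genes, with medians of -1.08 and -0.06.

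**Figure D2:**
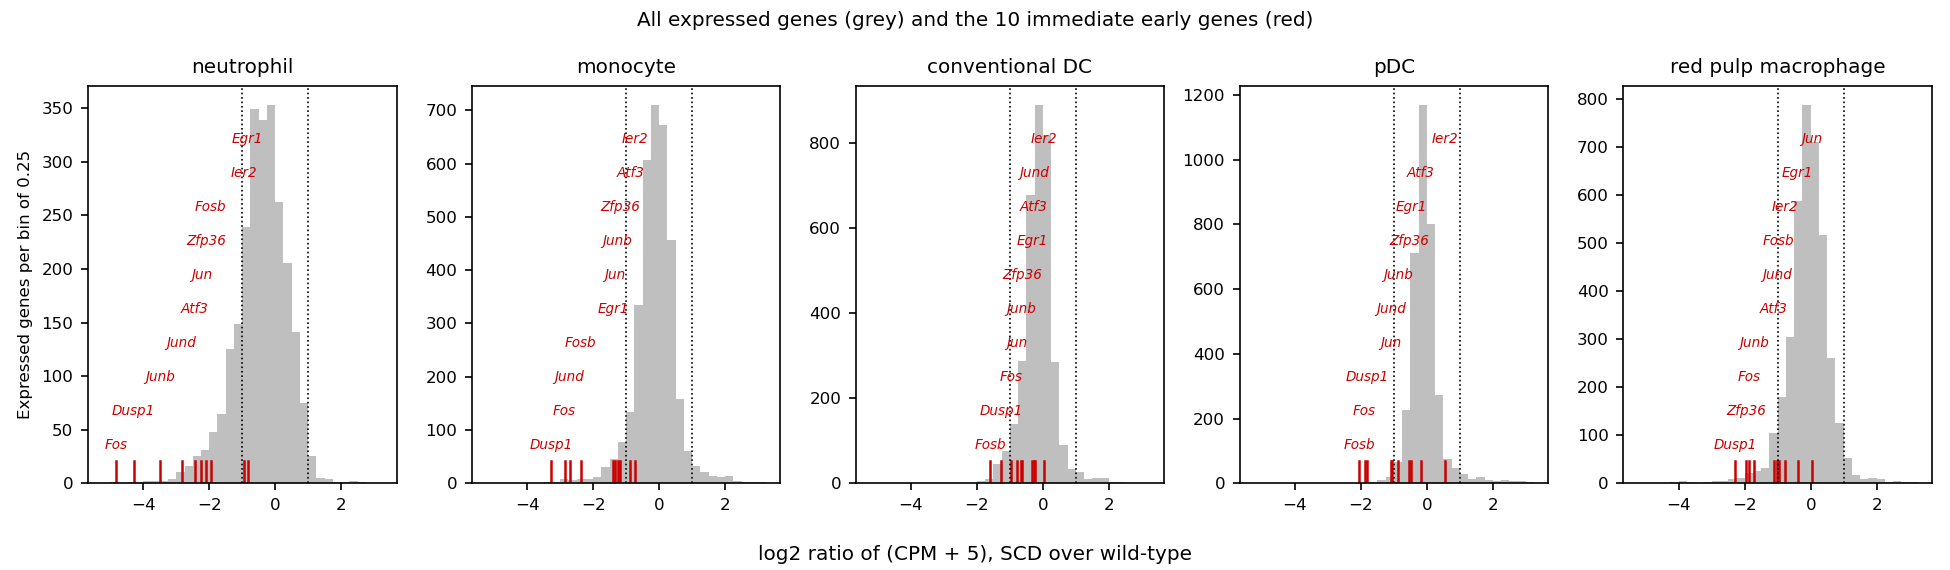
Log2 ratios of CPM plus 5 (SCD over wild-type) in 5 cell types. Grey bars count all expressed genes in bins of 0.25, red ticks mark the 10 genes whether or not they passed the filter on low levels, and dotted lines mark 2-fold. In neutrophils Fos at -4.82 and Dusp1 at -4.29 lie at the low end of the expressed genes, whose own median is -0.38.

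The neutrophils of the 2 libraries differed in stage. After each cell was thinned to 1000 UMIs, cells with more UMIs of early and intermediate granule genes than of late neutrophil genes were called immature. This held for 497 of 4330 wild-type (11.5%) and 3965 of 7188 SCD neutrophils (55.2%), and 17 and 131 cells lay within 5 UMIs of the cut. Most wild-type neutrophils (2937 of 4376) lay in cluster 0, and most SCD neutrophils in clusters 16, 2 and 18 (2404, 1763 and 1063 of 7200). Il1b and Dusp1 led cluster 0, and Fos was among its 10 leading genes, although the genes described here had been left out when it was formed.

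Immature neutrophils had little of most of the genes in either library. Fos stood at 17.9 CPM for wild-type and 2.51 for SCD (-1.61), and Dusp1 at 24.4 and 6.57 CPM (-1.35). Junb was at 36.8 and 18.1 CPM (-0.85). Jund was at 60.8 and 43.1 CPM (-0.45), Zfp36 at 98.8 and 76.1 (-0.36) and Ier2 at 122 and 106 (-0.19). Fos and Dusp1 were the 2 genes at least 2-fold lower, and neither counted as expressed. None of the 3 expressed genes was lower by that much, against 0.201% of the 1992 expressed genes, and the median of the 10 was -0.33.

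The other neutrophils, called more mature here, had higher levels. Among them Fos stood at 580.4 CPM for wild-type and 28.4 for SCD (-4.13), Dusp1 at 1201 and 131 CPM (-3.15), Junb at 1325 and 253 (-2.36), Jund at 1252 and 338 (-1.87), Zfp36 at 907 and 349 (-1.37) and Ier2 at 308 and 169 (-0.85). At least 2-fold lower were 8 of the 10 genes (6 of the 7 expressed), with a median of -2.12, against 12.6% of the 2522 expressed genes. Median UMIs per cell still differed, at 2363 and 3837. Among neutrophils with 2000 to 4000 UMIs, a window chosen after the depths had been seen, 6 of the 10 genes were at least 2-fold lower (4 of the 7 expressed) and the median was -1.55, against 3.86% of the 2515 expressed genes. Fos was then at 603 and 45.8 CPM (-3.58), Dusp1 at 1285 and 206 CPM (-2.61) and Zfp36 at 921 and 494 CPM (-0.89).

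**Figure D3:**
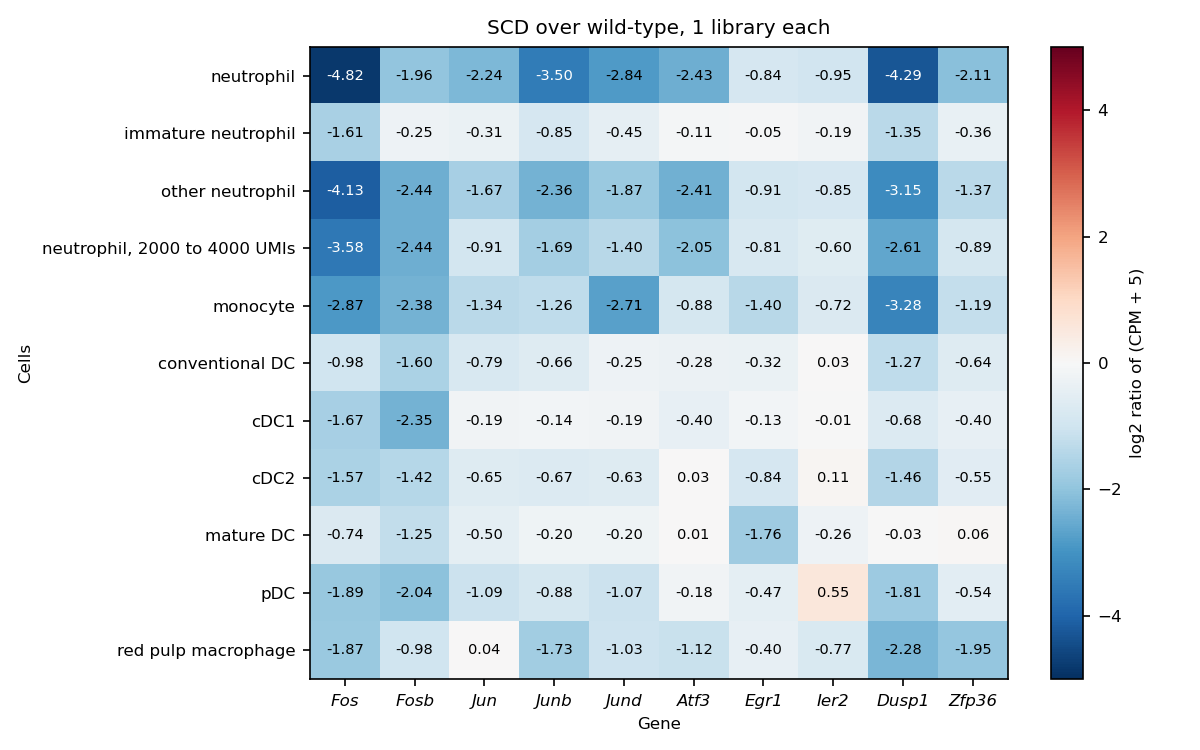
Log2 ratios of CPM plus 5 (SCD over wild-type) for the 10 genes (columns) in cell types, neutrophil stages and DC subtypes (rows), blue where SCD was lower. Fos and Fosb are below 0 in every row, whereas Ier2 ranges from -0.95 in neutrophils to 0.55 in pDCs.

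Within single clusters the differences varied by gene. In cluster 0 (2937 wild-type and 175 SCD cells) Fos had a log2 ratio of -2.31 and Dusp1 of -2.14, whereas Junb was at -0.80, Jund at -0.63, Ier2 at -0.37 and Zfp36 at -0.33. In cluster 1, led by Ifitm1 and Wfdc17 (705 and 1009 cells), Fos was at -2.87, Dusp1 at -1.88, Jund at -0.61 and Zfp36 at -0.42. In cluster 2, led by Retnlg and Stfa-family genes (159 and 1763 cells), Fos was at -2.67, Dusp1 at -1.16, Jund at -0.19 and Zfp36 at -0.02. In cluster 16, with Mmp8 and Ly6g (284 and 2404 cells), they were at -1.97, -0.83, -0.29 and -0.16, and in cluster 18, with Camp, Ngp and Lcn2 (138 and 1063 cells), at -1.08, -0.29, 0.06 and -0.32. Cluster 12, led by cell division genes such as Top2a (56 and 514 cells), had Fos at -1.38 and Zfp36 at -0.44. The Zfp36 ratio of -2.11 over all neutrophils was therefore lower than in any of these 6 clusters, and the Fos ratio stayed at or below -1.08 in each. At least 2-fold lower were 5 of the 10 genes in cluster 0 (3 of the 8 expressed), against 1.34% of expressed genes, 3 in cluster 1 (2 of 7), against 0.746%, and 2 in cluster 2 (2 of 6), against 0.732%. There were 2 in cluster 12, 1 in cluster 16 and 1 in cluster 18, none of them among the 1, 3 and 2 expressed genes, against 0.229%, 0.313% and 0.0545%. The medians of the 10 genes were -0.99, -0.64 and -0.45 in clusters 0, 1 and 2, and -0.39, -0.27 and -0.12 in clusters 12, 16 and 18.

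Among monocytes, cluster 4 (598 and 944 cells, led by Vcan, Fn1 and F13a1) held most cells of both libraries and showed log2 ratios of -3.33 for Dusp1, -3.17 for Fos, -2.27 for Jund, -1.12 for Junb, -0.98 for Zfp36 and -0.59 for Ier2, with 7 of the 10 genes at least 2-fold lower (5 of the 8 expressed) against 1.83% of expressed genes. Its median of -1.48 was below that of each of the 6 neutrophil clusters. Cluster 9, with Ace and Cd300e, and cluster 21 held under 50 cells in 1 library and were not compared on their own. In this larger monocyte cluster Jund thus differed more than Junb, while in neutrophils as a whole Junb differed more than Jund.

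The cDC subtypes differed from each other. In cDC1 (166 and 220 cells) Fos was at 185 and 54.7 CPM (-1.67) and Fosb at 145 and 24.3 CPM (-2.35), but Jun, Junb, Jund, Egr1 and Ier2 lay between -0.19 and -0.01. In cDC2 (1828 and 408 cells) Fos was at 61.1 and 17.3 CPM (-1.57), Dusp1 at 105 and 35.1 CPM (-1.46) and Fosb at 105 and 36.0 CPM (-1.42). The largest cDC2 cluster, number 3 (1392 and 226 cells), showed none of the 10 genes at least 2-fold lower, against 0.178% of expressed genes, with Fos at -0.31. The cDC2 values rested on 2 clusters that among DCs were led by markers of other cells. Cluster 8 (178 and 53 cells), whose 10 leading genes among DCs held 8 neutrophil markers such as Camp, Ngp and S100a8, had Fos at -3.58 and 8 of the 10 genes past 2-fold (7 of the 8 expressed), against 13.4% of expressed genes. Cluster 14 (129 and 114 cells), with 4 monocyte markers such as Fn1 and F13a1 beside Clec10a, had Fos at -2.95 and 5 past 2-fold (4 of the 7 expressed), against 2.36%. Without these 2 clusters, a choice made after their genes had been seen, none of the 10 genes was at least 2-fold lower in cDC2 (1521 and 241 cells), against 0.147%, with Fos at 38.0 and 28.7 CPM (-0.35), Dusp1 at -0.49 and Fosb at -0.65. In mature Ccr7 and Fscn1 cells (668 and 91 cells) Dusp1 was at 186 and 181 CPM (-0.03), Zfp36 at 330.2 and 344 CPM (0.06) and Junb at 690 and 600 CPM. Egr1 had 50 UMIs in the wild-type mature cells, at 12.0 CPM, and none in the SCD cells, where 3 UMIs would be 5.61 CPM, so it was at least 2.13-fold higher in the wild-type. At least 2-fold lower were 2 of the 10 genes in cDC1 (2 of the 9 expressed), 3 in cDC2 with all its clusters (3 of 9) and 2 in mature DCs (1 of 6), against 0.47%, 1.29% and 2.18% of expressed genes.

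**Figure D4:**
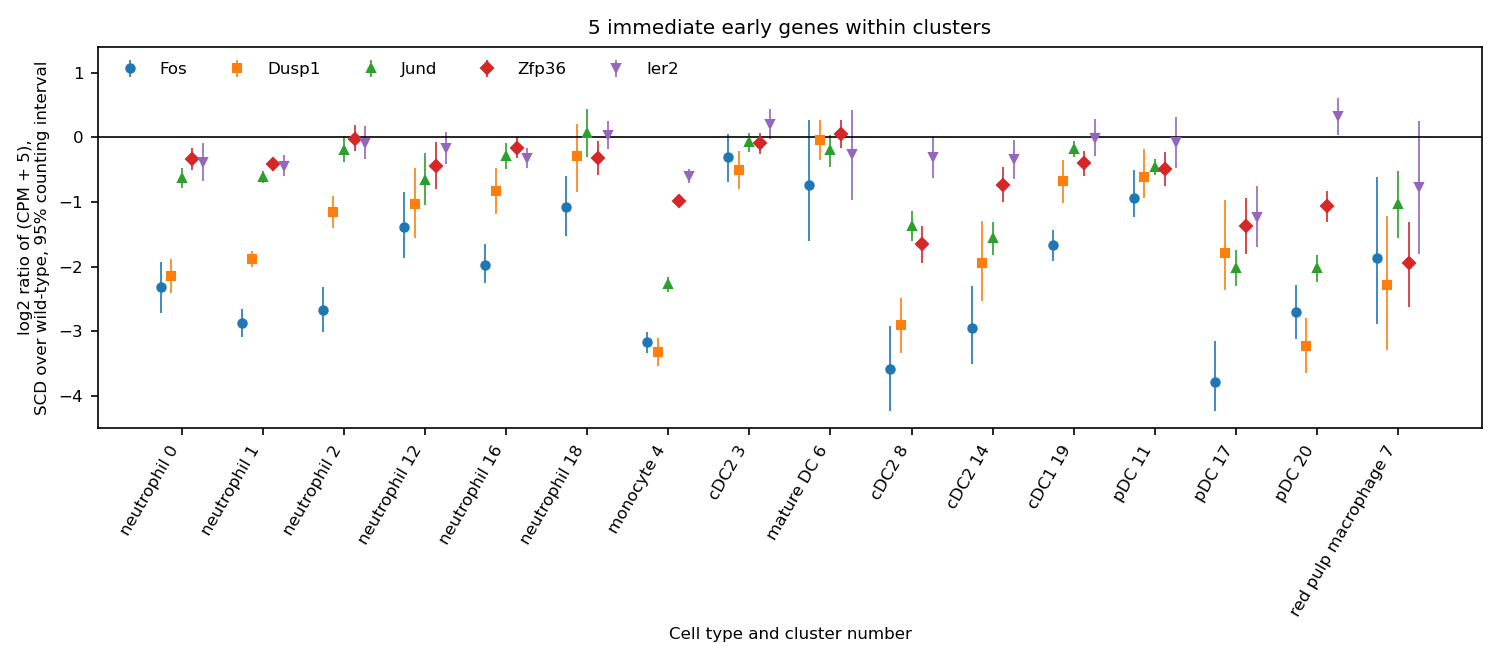
Log2 ratios of CPM plus 5 (SCD over wild-type) of Fos, Dusp1, Jund, Zfp36 and Ier2 within each named cluster of at least 50 cells in both libraries, with 95% counting intervals. Fos is the lowest of the 5 in neutrophil clusters 0, 1, 2, 12, 16 and 18, from -1.08 to -2.87, and Ier2 lies between -0.44 and 0.03 in them.

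Shares of cells with a UMI were compared at equal depth. In neutrophils and monocytes the share was lower in the SCD library for each of the 10 genes. In thinned neutrophils Fos had a UMI in 34.2% of wild-type (Clopper-Pearson interval 32.8% to 35.7%) and 1.77% of SCD cells (1.48% to 2.10%), and Dusp1 in 52.3% and 6.59%. Without thinning the shares were 54.9% and 5.54% for Fos. Junb was detected in 62.1% and 12.7% of thinned neutrophils, Jund in 61.2% and 17.2%, Zfp36 in 52.2% and 18.9%, and Ier2 in 25.6% and 13.3%. In thinned monocytes Fos was detected in 13.5% and 1.63% of the cells, Jund in 27.4% and 4.73% and Ier2 in 18.2% and 13.1%. In thinned cDCs Jund was detected in 23.2% and 23.9% of the cells and Ier2 in 6.34% and 8.11%, in pDCs Ier2 in 3.12% and 3.58%, in red pulp macrophages Jun in 1.91% and 2.22%, and in mature DCs Jund in 24.3% and 33.3% and Dusp1 in 12.9% and 16.7%. The intervals overlapped for each of these. No cell type here is known to lack these genes, so a background share could not be read from one.

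Cells were also counted by how many of the genes they held. These shares follow the level of each gene, and occurrence together beyond those levels was not tested. UMIs of at least 3 of the 10 were found in 64.7% of thinned neutrophils of the wild-type library (63.3% to 66.2%) and in 7.64% of those of the SCD library (7.03% to 8.28%). None of the 10 was found in 10.02% and 55.9%. Within the immature cells the shares with at least 3 were 1.81% and 0.177%, and within the other neutrophils 72.9% and 16.8%. In cDCs they were 15.5% and 8.95%, in monocytes 14.6% and 1.18%, in red pulp macrophages 5.26% and 0.741% and in pDCs 2.28% and 0.138%. The pDC shares came from 19 and 1 cells, of which 63.2% of the wild-type cells were called doublets, and their order turned around when cells of over 5000 genes were included. Among the 11 wild-type red pulp macrophages with at least 3 of the genes, 90.9% were called doublets. Unthinned shares, which follow depth, were 89.4% and 41.2% in neutrophils and 86.6% and 77.9% in cDCs.

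**Figure D5:**
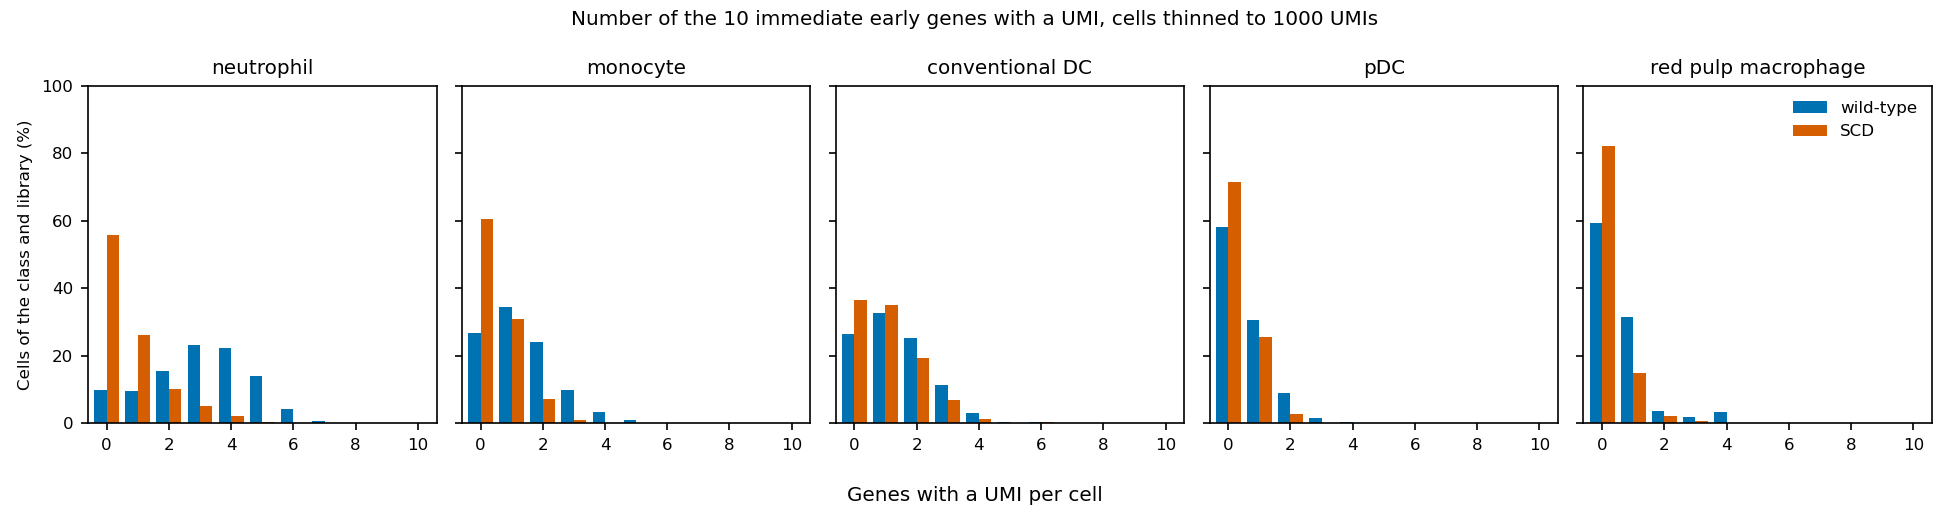
Share of cells (vertical axis, percent of the class and library) by the number of the 10 genes with a UMI after thinning to 1000 UMIs (horizontal axis), wild-type in blue and SCD in orange. Wild-type neutrophils spread over 0 to 8 genes with a median of 3, whereas 55.9% of SCD neutrophils have none.

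Pairs of genes were only weakly tied to each other cell by cell. Over 4330 thinned wild-type neutrophils the Pearson correlation of UMIs had a median of 0.05 over the 45 pairs, and the highest was 0.27, for Fos and Dusp1. Dusp1 had a UMI in 68.6% of the cells with Fos and in 43.9% of those without. Junb and Jund were next at 0.21, and Fos and Jun stood at 0.02. In SCD neutrophils Junb and Jund were highest at 0.31, where Jund had a UMI in 46.7% of cells with Junb and in 12.9% of the others. Within the more mature neutrophils, where cells differ less in stage, these values were 0.23 for Fos and Dusp1 in the wild-type and 0.25 for Junb and Jund in the SCD library. In wild-type cDCs the highest was 0.12, again Fos and Dusp1. The cells of a value share 1 library and its depth, and weak values in sparse counts are given as a description.

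A list of 42 other primary response genes, whose response to a stimulus was not measured here, had a pattern of the same direction. In neutrophils 25 of the 42 were at least 2-fold lower in SCD with a median of -1.28 (18 of the 21 expressed, against 19.5% of all expressed genes). Within cells of like stage or depth the counts were smaller. There were 23 in the more mature neutrophils (16 of the 23 expressed, against 12.6%), 9 among neutrophils with 2000 to 4000 UMIs (6 of 23, against 3.86%) and none in immature neutrophils. In cluster 0 there were 2, neither among the 23 expressed, and there were none in clusters 1, 2, 12, 16 and 18. Over all neutrophils Socs3, a cytokine signalling inhibitor, was at 97.3 and 7.23 CPM (-3.06), Btg1, an antiproliferative gene, at 1901 and 349 (-2.43) and Mcl1, a short-lived survival protein of the BCL2 family, at 1454 and 280.4 (-2.35). In monocytes 19 were at least 2-fold lower (13 of the 19 expressed, against 5.86%), and within cluster 4 there were 8 (5 of the 16 expressed, against 1.83%). Over all monocytes the ERK phosphatase Dusp6 stood at 209 and 37.1 CPM (-2.35) and the nuclear receptor Nr4a1 at 312 and 48.5 CPM (-2.57), but Nr4a1 was among the 10 leading genes of cluster 9, which held 396 of 1040 wild-type and 49 of 1357 SCD monocytes. In cDCs there were 6 (6 of the 20 expressed, against 4.1%), and 2 without clusters 8 and 14 (2 of the 17 expressed, against 3.44%). Over all cDCs the list had Nfkbiz at 106 and 40.8 CPM (-1.27), Tnfaip3 at 75.2 and 28.3 (-1.27) and Dusp5 at 148 and 63.5 (-1.16). In red pulp macrophages there were 10 (5 of the 17 expressed, against 6.02%). In pDCs there was 1, which was not among the 15 expressed there (against 1.08%). Within pDC cluster 11 there were 0. Within the smaller pDC clusters 17 and 20 there were 11 (5 of the 12 expressed, against 5.61%) and 17 (10 of the 19 expressed, against 12.3%).

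Genes upstream of the response were counted in the same way. Of 20 listed kinases and factors upstream that were found in the files, none was at least 2-fold lower in monocytes or pDCs. These make 0 of the 14 and 0 of the 11 expressed, against 5.86% and 1.08% of all expressed genes. In neutrophils 2 were (2 of the 10 expressed, against 19.5%), with the factor Creb1 at 85.5 and 39.4 CPM (-1.03). In red pulp macrophages 2 were lower and 1 higher by that much (1 of the 14 expressed was lower, against 6.02%). In cDCs 1 of the 20 was at least 2-fold lower, the ternary complex factor Elk3 at 101 and 42.8 CPM (-1.15), which makes 1 of the 13 expressed against 4.1% of all expressed genes. Of 15 leucine zipper partners 5 were at least 2-fold lower in neutrophils (2 of the 6 expressed, against 19.5%), with Ddit3 at 88.7 and 18.8 CPM (-1.98), and 3 in monocytes (3 of the 9 expressed, against 5.86%), with Batf3 at 62.5 and 12.6 CPM (-1.94) and Maf at 94.2 and 28.4 CPM (-1.57). Of 11 cytokine transcripts with AU-rich elements 5 were at least 2-fold lower in neutrophils, where 19.5% of all expressed genes were. Of these 5, Il1b alone counted as expressed. There were 4 in cluster 0 (1 of the 2 expressed, against 1.34%), 2 in cluster 1 (1 of 2, against 0.746%) and 0 in cluster 2 (0 of 1, against 0.732%). Summed over all cells of a type, Il1b stood at 2032 and 165 CPM in neutrophils (-3.58), 138 and 14.4 in monocytes (-2.89) and 208 and 80.1 in cDCs (-1.32). The 11 cytokine transcripts together were at 2151 and 193 CPM over all neutrophils. Within cluster 0 they were at 3768 and 3271 CPM, and within cluster 1 at 3362 and 2597 CPM. The 1 that counted as expressed in monocyte cluster 4 was at -2.39. In cDCs without the cDC2 clusters led by markers of other cells, the 1 expressed was at -0.77.

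Handling of the suspensions cannot be told apart from genotype, because each genotype had 1 spleen and 1 suspension. Some measures that can move with handling were therefore set beside the genes. Of 16 heat shock chaperones, 1 was at least 2-fold lower in SCD neutrophils, with a median log2 ratio of -0.02, 3 in monocytes (-0.37), 2 in cDCs (-0.32), none in pDCs (-0.33) and 1 in red pulp macrophages (-0.17). Among the chaperones that counted as expressed these were 0 of 5 in neutrophils, 2 of 11 in monocytes, 0 of 9 in cDCs, 0 of 10 in pDCs and 0 of 9 in red pulp macrophages, against 19.5%, 5.86%, 4.1%, 1.08% and 6.02% of all expressed genes. Their medians were -0.73 in neutrophils, where all expressed genes had -0.38, -0.26 in monocytes, -0.10 in cDCs, -0.33 in pDCs and 0.12 in red pulp macrophages. The 2 in monocytes were the inducible Hspa1b, at 68.3 CPM for wild-type and 2.03 for SCD (-3.38), and Hsph1 at 55.3 and 19.8 CPM (-1.28), and Dnaja1 in neutrophils was at 182 and 93.8 CPM (-0.92). The median mitochondrial share per cell was 0.380% in wild-type and 0.671% in SCD neutrophils, 2.69% and 3.30% in monocytes, 2.99% and 3.02% in cDCs, 4.98% and 4.62% in pDCs and 4.64% and 5.96% in red pulp macrophages. The part of these measures in the results was not tested.

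Cells with the genes and cells without them were compared in depth. Wild-type neutrophils with UMIs of at least 3 of the 10 had a median of 2314 UMIs, and those with none 9941.5 before thinning, and the SCD values were 2171 and 8976. Among the more mature neutrophils the medians were 2313 and 4432 in the wild-type and 2131.5 and 4938 in the SCD library. In the wild-type library they were closer in monocytes, at 9582 and 10107, and in cDCs, at 7221 and 8234. The cells with the genes were the deeper ones in wild-type pDCs (12362 and 11051) and red pulp macrophages (3181 and 1567). Chaperone UMIs per 1000 were 1.37 and 0.887 in wild-type neutrophils with at least 3 genes and with none. In the other wild-type cell types they went the other way, at 4.66 and 4.89 in monocytes, 3.69 and 4.4 in cDCs, 3.74 and 5.09 in pDCs and 2.09 and 3.69 in red pulp macrophages, the last 2 pairs with 19 and 11 cells that had at least 3 genes. In the SCD library they were 1.39 and 0.891 in neutrophils, 4.56 and 3.81 in monocytes (16 cells with at least 3 genes) and 2.97 and 3.89 in cDCs. Other primary response UMIs per 1000 were 14.2 and 2.86 in wild-type neutrophils, and 14.3 and 6.72 within the more mature ones.

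Transcripts from neutrophils were present in the other cell types, and their part in the values of those types was not tested. In wild-type pDCs the 19 neutrophil markers stood at a median of 3.99% of their neutrophil level (0.720% to 6.08%), Fos at 9.22% and Dusp1 at 3.90%. Without called doublets these values were 1.13%, 5.10% and 1.09%. In wild-type monocytes the markers were at a median of 2.71% (0.212% to 43.4%), Fos at 49.1% and Dusp1 at 14.1%, and in wild-type cDCs at 3.89% (2.14% to 11.9%), 18.3% and 15.2%. In wild-type red pulp macrophages they were at 2.93% (0% to 13.4%), 10.9% and 10.4%. Each range ends at its highest marker. Dusp1 in pDCs and monocytes and both genes in red pulp macrophages lay within the range, and Fos in pDCs and monocytes and both genes in cDCs lay above it. Against the median marker, only Dusp1 in pDCs was not higher. In wild-type monocytes without called doublets the median marker was at 0.748% and Dusp1 at 12.0%. In SCD pDCs the markers were at a median of 14.7% and summed to 65114 CPM, against 12411 CPM in wild-type pDCs. Without called doublets the SCD median was 8.86%, and the sums were 39168 CPM in SCD and 3762.5 CPM in wild-type pDCs. The sums were higher in the SCD library in the other types too. With doublets left in they were 35260 CPM in SCD and 9192 in wild-type cDCs. In monocytes they were 12109 and 4319 CPM, and in red pulp macrophages 11350 and 7928 CPM.

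Over 13 sums of cell type and library, the genes outside the 10 whose log2 levels most resembled the summed level of the 10 were Srgn, the core protein of granule proteoglycan, with a Pearson correlation of 0.92, Gm37558 (0.85), Mcl1 (0.85), Btg1 (0.85), Mpzl3 (0.84), Ep300 (0.84), Nfkbia (0.84), Retreg1 (0.83), Nsd3 (0.82) and Arid4a (0.82), out of 6189 genes. The sums share 2 libraries and their depth. Srgn was at 3181 CPM in wild-type neutrophils and 138 CPM in SCD red pulp macrophages. Of the 10 genes themselves, Dusp1 (0.93), Fos (0.91) and Junb (0.90) lay nearest to the sum that includes them, and Jun (0.47) and Egr1 (0.44) farthest.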

How the data were processed

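Spleen cell suspensions of 1 wild-type control and 1 SCD mouse, loaded on 1 chip with libraries built in parallel according to the study's methods, were read by droplet single-cell RNA sequencing of 3′ ends. The deposited values were counts of UMIs per gene and cell, which the authors made with Cell Ranger 4.0.0 on GRCm38.p6 per the submitters' processing notes. The notes also name Seurat 3.2.3 and Scanpy 1.6.0. Cells with 500 to 5000 genes, under 15% mitochondrial and under 30% ribosomal UMIs were kept. Size factors came from scran 1.30.0 (R 4.3.3), and 24 Leiden clusters from scanpy 1.11.5 and igraph 0.11.9 with 2000 variable genes, 30 components, 15 neighbours and resolution 1. Called doublets (3.82% and 2.28% of the kept cells) were left in the main values. UMIs were summed per cell type and library and scaled to CPM. Ratios used a pseudocount of 5 CPM, with exact conditional intervals for counting error at the 95% level. With 1 sample per group no test was possible and none was made. Shares came from cells thinned to 1000 UMIs, leaving out shallower cells. Total UMIs per library set the precision, and cells are not replicates. The count script was tested on simulated data. The 10 genes, the other gene lists and the markers were chosen with earlier results of these data known. All 10 genes are named, from each other list the 3 expressed genes with the largest absolute log2 ratio in each cell type (some are described here), and the 10 other genes most like the sum. A result among the genes upstream in neutrophils is not reported here.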

Additional observations from a re-analysis of the deposited data

Results flagged for a closer look

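The log2 ratio of Ier2 was 0.55 in pDCs and -0.95 in neutrophils, so the libraries differed in opposite directions in the 2 cell types. The difference between the cell types was not tested. The pDC value turned to -0.11 with finer clusters and to -0.087 with no upper limit on genes per cell, and at 29.4 CPM for wild-type and 45.4 for SCD Ier2 did not count as expressed there. In the cells with over 5000 genes, which the filter leaves out (296 wild-type and 1222 SCD cells), Ier2 stood at 42.8 CPM for wild-type and 54.6 for SCD, a log2 ratio of 0.32 with a counting interval from 0.22 to 0.42, and the 9 other genes were lower in the SCD library. These sums were not split by cell type. With no upper limit, an erythroid cluster led by Car1 held 191 wild-type and 630 SCD cells. An unnamed cluster led by Ctsg and Mpo held 82 and 822.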

How the results depend on the processing

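The median log2 ratio of the 10 genes stayed below 0 in all 91 alternative values. Of these, 27 lay outside the range from the median lower to the median upper bound of the counting intervals of the 10 genes. Of 800 values for single genes 768 were below 0. Changes of sign were counted only where the main counting interval excluded 0, and there were 5. These were Jund in cDCs (0.096 without the cDC2 clusters led by markers of other cells), Egr1 in pDCs (0.16 without called doublets and 0.45 with no upper limit on genes per cell) and Ier2 in pDCs (-0.11 at resolution 2 and -0.087 with no upper limit). With a pseudocount of 1 CPM the median was -2.23 over all kept cells, -1.99 in monocytes and -3.22 in neutrophils, and with 20 CPM it was -1.68, -1.08, -1.70, -0.79 in pDCs and -1.38 in more mature neutrophils. Scaled by the median of ratios it was -1.62 over all cells, -0.53 in cDCs, -2.08 in neutrophils and -1.66 in more mature neutrophils. As a mean per cell it was -1.74 over all cells, -1.17 in monocytes and -1.72 in more mature neutrophils. With at least 1000 genes per cell it was -1.93, -2.19 in neutrophils and -2.31 in more mature neutrophils. With no mitochondrial or ribosomal limit it was -1.95 over all cells, and with no upper limit -1.93 and -0.46 in pDCs. Without called doublets it was -0.54 in cDCs and -0.71 in pDCs, and at resolution 2 it was -0.80 in pDCs. With 2000 to 4000 UMIs, a window chosen after seeing the data, it was -1.55 in neutrophils and -1.51 in more mature neutrophils. Without the cDC2 clusters led by markers of other cells, also chosen after seeing the data, it was -0.35 in cDCs.

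The share of cells with at least 3 of the genes, SCD over wild-type, was 0.118 in neutrophils, 0.0812 in monocytes, 0.577 in cDCs, 0.0605 in pDCs and 0.141 in red pulp macrophages. In neutrophils it was 0.0618 with at least 1000 genes, 0.221 for at least 2 of the genes, 0.0268 for at least 5, 0.461 without thinning, 0.163 at 2000 UMIs and 0.0679 at 500 UMIs. In monocytes it was 0.218 for at least 2 and 0.813 without thinning, and in cDCs 0.899 without thinning. In pDCs it was 1.42 with no upper limit, 0.54 without thinning and 0 for at least 5 or at 500 UMIs. In red pulp macrophages it was 0 at resolution 2, without called doublets, with no mitochondrial or ribosomal limit and at 500 UMIs, and the share with at least 5 could not be computed. The causes were not tested. No paired analysis was possible because there was 1 sample per group. Depth limits the red pulp macrophage values (median UMIs per cell 1334.5 for wild-type and 1534 for SCD), and Egr1, Fosb and Atf3 in most cell types.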
